A study of Mus musculus with 8 samples.

Results

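A list of nucleolar ribosome biogenesis genes, named as MYC targets, was described across early reprogramming under 2 knockdowns. Whether MYC drives them in these cells was not tested. The members are 36 named genes for ribosomal RNA processing and RNA polymerase I (Pol I), taken by gene symbol from the 18990 genes of the expression table, and all 36 had a row. RNA-seq of ribosomal RNA-depleted total RNA was made from wild-type C57/BL6 mouse embryonic fibroblasts (MEFs) in bulk. Every group carried lentiviral rtTA and the doxycycline-inducible tet-STEMCCA cassette of Oct4, Sox2, Klf4 and c-Myc (OSKM), and every group received doxycycline, a GSK3 inhibitor, an Alk5 inhibitor, ascorbic acid and LIF. The groups were siNcor1 and siOct4, pools of siRNAs against Ncor1 or Oct4, at day 3 and at day 6, with 2 biological replicates each. A non-targeting control was not analysed here, so each value compares 1 knockdown with the other or 1 day with the other. In bulk RNA, fewer cells of a type and less RNA per cell cannot be told apart.

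Libraries held between 7735742 and 16445192 reads on genes, and the members took between 0.653% and 1.00% of them. Pou5f1, which encodes OCT4, was not called lower in siOct4 than in siNcor1 at either day. Its log2 difference of siOct4 from siNcor1 was -0.08 at day 3 and 1.78 at day 6 (limma adjusted p = 0.000109 at day 6). Reads from the cassette and from the resident Pou5f1 gene are counted together, so these values cannot show how far the siRNAs acted. Ncor1 was higher in the libraries labelled siOct4 at day 3, by 0.74, and differed by -0.04 at day 6. The label "siOct4" is used below only as the name of those libraries. Fibroblast markers were present in all libraries, with a summed level between 2437 CPM and 10278 CPM (CPM, read counts scaled to a common library size), and they were lowest in the siOct4 libraries of day 6.

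Ribosomes are assembled in the nucleolus, where Pol I transcribes the long precursor of the ribosomal RNAs. Small nucleolar ribonucleoproteins (snoRNPs) modify that precursor, and a succession of processing factors, helicases and scaffold proteins cuts and folds it into the small and the large subunit. MYC is a transcription factor that binds E-box sequences together with MAX, and genes for these steps are among its best known targets in growing cells. In reprogramming MYC is itself one of the delivered factors, so reads from the cassette and from the resident Myc gene are counted together here and cannot be told apart.

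The sequences before the start sites were searched for the canonical E-box, CACGTG, which is its own reverse complement, and for the variant CACGCG on both strands; both begin with the letters CACG. RefSeq windows on GRCm38.p6, from 250 bases before to 50 bases after a start site, were found for 30 of the 36 members, in 34 windows. Bop1, Fbl, Npm1, Rrp12, Rrs1 and Tcof1 were not matched. CACGTG stood in the windows of 5 members, Nop2, Pes1, Wdr43, Utp20 and Mybbp1a, or 14.7% of member windows beside 7.15% of all windows and 9.93% of windows of tested genes. CACGCG stood in 35.3% of member windows, in 11 members, beside 9.27% of all windows and 17.0% of windows of tested genes. In windows of other ribosome biogenesis genes, a wider list described below, the shares were 19.2% for CACGTG and 27.9% for CACGCG. A match describes these letters and does not show binding. The 250 bases before the start are shown for Nop2, with the only CACGTG of a member before its start, for Rrp9, whose difference between the knockdowns at day 6 was the largest and whose window held neither motif, and for Polr1c, 1 of the members that rose with time under both knockdowns. They lie at chr6:125131633-125131882 (plus strand), chr9:106477059-106477308 (plus strand) and chr17:46248046-46248295 (minus strand). The annotated bounds of the Rrp9 gene, given below, begin upstream of its window, so the bases before that gene start were not searched. For the other members with CACGTG, all past the start site, 30 bases around the match are shown, at chr11:3963965-3963994 (plus strand), chr17:71616220-71616249 (plus strand), chr10:88826765-88826794 (minus strand) and chr11:72441347-72441376 (plus strand). Sequences run 5′ to 3′ along the gene, and capitals mark CACGTG or CACGCG on either strand.
Nop2: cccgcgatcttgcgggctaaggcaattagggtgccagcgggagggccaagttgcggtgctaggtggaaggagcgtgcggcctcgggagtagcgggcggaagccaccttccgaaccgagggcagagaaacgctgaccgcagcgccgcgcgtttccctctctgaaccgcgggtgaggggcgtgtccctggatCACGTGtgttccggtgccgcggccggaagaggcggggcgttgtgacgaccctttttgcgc
Rrp9: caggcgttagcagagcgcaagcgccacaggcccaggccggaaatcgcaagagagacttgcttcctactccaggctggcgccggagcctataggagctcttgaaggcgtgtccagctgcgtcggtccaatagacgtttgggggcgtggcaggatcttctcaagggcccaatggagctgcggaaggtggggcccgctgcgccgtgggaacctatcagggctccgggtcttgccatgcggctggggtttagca
Polr1c: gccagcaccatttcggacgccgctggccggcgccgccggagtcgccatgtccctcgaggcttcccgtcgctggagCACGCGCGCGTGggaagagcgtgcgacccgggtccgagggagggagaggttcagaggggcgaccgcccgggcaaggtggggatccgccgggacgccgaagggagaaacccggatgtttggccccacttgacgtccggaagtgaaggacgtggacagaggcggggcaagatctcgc
Pes1: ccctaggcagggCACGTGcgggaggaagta
Wdr43: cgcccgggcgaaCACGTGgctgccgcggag
Utp20: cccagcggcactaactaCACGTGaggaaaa
Mybbp1a: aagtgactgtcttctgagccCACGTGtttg
The first base of CACGTG lay 60 bases before the start in Nop2. The match began at base 3 after the start in Pes1, 18 in Wdr43, 38 in Utp20 and 41 in Mybbp1a. The 5 members with CACGTG had a median log2 difference of 0.44 between the knockdowns at day 6, from 0.05 to 0.51, and the 25 without it a median of 0.53, from 0.19 to 1.10. The largest and the smallest difference among matched members thus stood with Rrp9, which lacks the motif in its window, and Utp20, which has it.

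Levels per length of exon differed widely between members. Npm1, a nucleolar chaperone, was highest in all groups, at 529 CPM per kb with siNcor1 at day 3 and 880 CPM per kb with siOct4 at day 6. Wdr12, a large-subunit factor of the PeBoW complex, was lowest at day 3 in siNcor1 at 6.00 CPM per kb. In siOct4 at day 6 the lowest was Utp15, a small-subunit factor, at 7.40 CPM per kb. The order of the members stayed close to that of siNcor1 at day 3, with a Spearman rho over the 36 members of 0.99 in siOct4 at day 3, 0.91 in siNcor1 at day 6 and 0.86 in siOct4 at day 6, a description over genes that share libraries. Rrp9 moved from rank 19 in siNcor1 at day 3 to rank 8 in siOct4 at day 6, and Utp20 from rank 22 to rank 32.

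**Figure D1:**
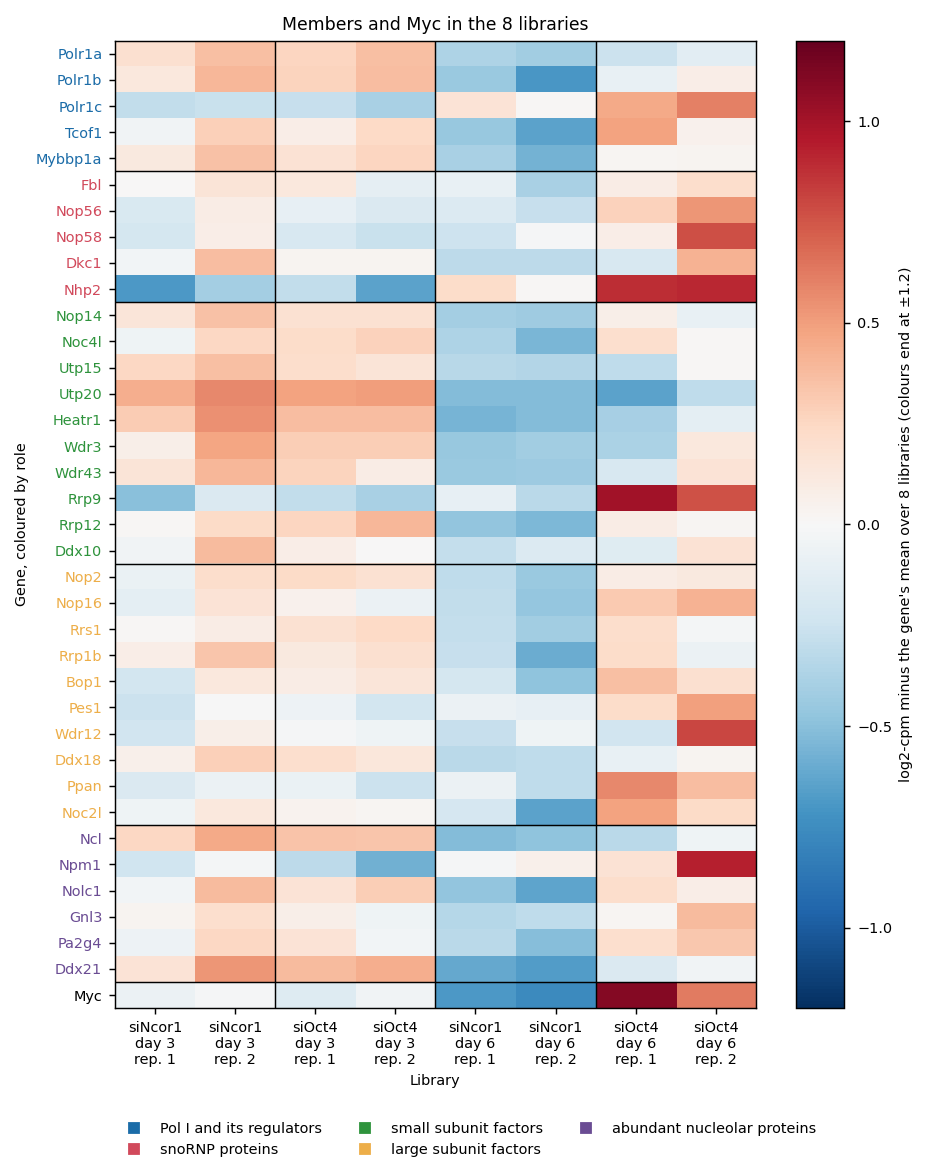
Deposited log2-cpm of each member and of Myc in the 8 libraries, as colour, after subtracting the gene's mean over the libraries, with genes in order of role. The siNcor1 libraries of day 6 are blue for most genes, and Rrp9, Nhp2 and Myc are red in both siOct4 libraries of day 6.

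At day 6 all 36 members had a higher mean in siOct4 than in siNcor1, and 24 of them passed the test as higher (limma, Benjamini-Hochberg adjusted p below 0.05), where 12.1% of the 13866 tested genes did. None was lower, where 18.6% of tested genes were. The median log2 difference of the members was 0.51, and that of all tested genes -0.03. The mean of the members was 6.81 ± 0.06 (SD, n = 2) log2-cpm in siNcor1 and 7.32 ± 0.10 (SD, n = 2) in siOct4. For 34 of the 36 members both siOct4 libraries lay above both siNcor1 libraries, the exceptions being Utp20 and Wdr12, where this held for 29.9% of tested genes. Without siNcor1 day 6 replicate 2 the median difference was 0.43 for the members and -0.03 for all tested genes, with all 36 members still above 0. The number of calls leaned on that library: it was lowest without it, and calls over all tested genes fell as well. Without any other single library the number was between 18 and 27, and without siOct4 day 6 replicate 2 the difference was above 0 for 34 members.

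**Figure D2:**
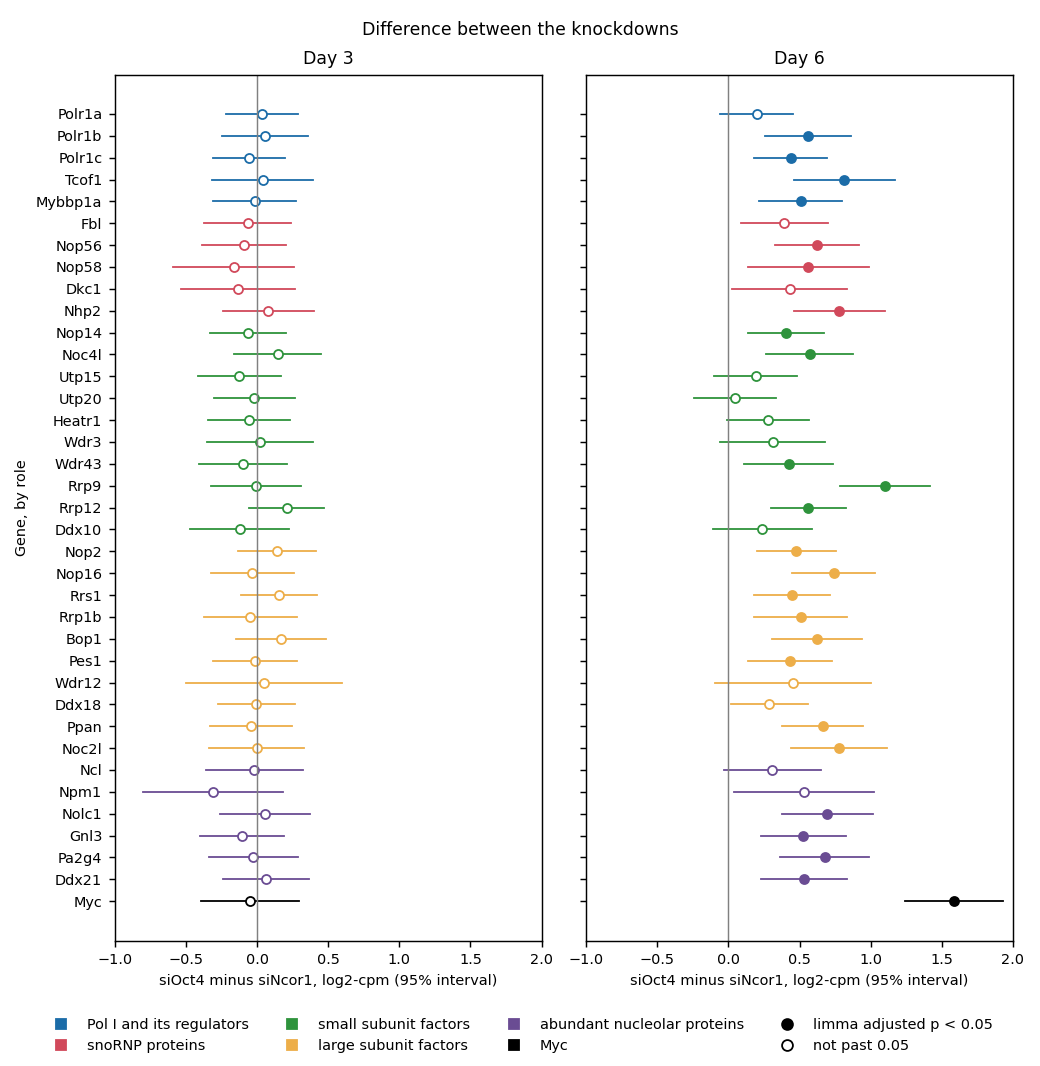
Log2 difference of siOct4 from siNcor1 for each member and Myc at day 3 and at day 6, with 95% intervals from limma. Filled points passed an adjusted p of 0.05. At day 3 no point is filled, and at day 6 the 24 filled members lie between 0.41 and 1.10 with Myc at 1.59. Myc is drawn in the same way. The rule of selection named its day 6 difference, so its interval and fill there are not to be read as a test.

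Of the 5 Pol I genes, 4 were higher in siOct4 than in siNcor1 at day 6. Tcof1, treacle, a Pol I cofactor, was at 7.03 and 6.84 log2-cpm in the siNcor1 libraries and at 7.97 and 7.53 in the siOct4 libraries. The siOct4 libraries were apart from the siNcor1 libraries, and they were also the less alike pair. The log2 difference was 0.81 ± 0.16 (SE, limma adjusted p = 0.0039). Polr1b, the second largest Pol I subunit, was at 5.94 and 5.68 in siNcor1 and at 6.28 and 6.45 in siOct4, a difference of 0.56 ± 0.14 (SE, adjusted p = 0.011). Mybbp1a, a nucleolar MYB-binding protein, differed by 0.51 and Polr1c, a subunit shared with Pol III, by 0.44, and both passed. Polr1a, the largest subunit, was at 6.91 and 6.87 in siNcor1 and at 7.02 and 7.15 in siOct4. Its difference of 0.20 had a 95% interval from -0.06 to 0.45 and did not pass.

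Of the 5 snoRNP proteins, 3 were higher in siOct4 at day 6: Nhp2, Nop56 and Nop58. Nhp2, of the H/ACA particles that guide pseudouridylation, was at 7.57 and 7.37 log2-cpm in siNcor1 and at 8.24 and 8.26 in siOct4, a difference of 0.78 ± 0.15 (SE, limma adjusted p = 0.00287). Nop56, a scaffold of the C/D particles that guide ribose methylation, was at 7.88 and 7.77 in siNcor1 and at 8.32 and 8.58 in siOct4, a difference of 0.62 ± 0.14 (SE, adjusted p = 0.00596). Both genes had closely placed libraries in siNcor1. Its partner Nop58 was at 7.46 and 7.69 in siNcor1 and at 7.79 and 8.49 in siOct4, so that the siOct4 libraries spread more than the groups differed (0.56 ± 0.20 SE, adjusted p = 0.0471). Fbl, the methyltransferase fibrillarin, differed by 0.39 with a 95% interval from 0.09 to 0.70, just outside the threshold (adjusted p = 0.0508). Dkc1, the pseudouridine synthase dyskerin, differed by 0.43 (adjusted p = 0.0969).

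Of the 10 small-subunit factors, 5 were higher in siOct4 at day 6, and the role held both the largest and the smallest difference among the members. Rrp9, a WD-repeat protein of the U3 snoRNP (ENSMUSG00000041506, chr9:106475963-106485424, GRCm38, plus strand), was at 6.83 and 6.60 log2-cpm in siNcor1 and at 7.94 and 7.69 in siOct4. The pairs lay far apart, and the difference of 1.10 ± 0.15 (SE, limma adjusted p = 0.000499) is a 2.14-fold higher level. Noc4l differed by 0.57 and Rrp12, an export and processing factor, by 0.56, with Wdr43 at 0.42 and Nop14 at 0.41, all past the threshold. The members that did not pass were Utp20, Utp15, Ddx10, Heatr1 and Wdr3, with differences from 0.05 to 0.31. Utp20, a large scaffold protein of the small-subunit processome (ENSMUSG00000004356, chr10:88746607-88826804, GRCm38, minus strand), was at 7.03 in both siNcor1 libraries and at 6.90 and 7.24 in siOct4. The siNcor1 libraries fell between the siOct4 libraries, and the 95% interval of the difference ran from -0.24 to 0.33.

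Of the 10 large-subunit factors, 8 were higher in siOct4 at day 6. Noc2l, which escorts pre-60S particles out of the nucleolus, was at 7.28 and 6.84 log2-cpm in siNcor1 and at 7.96 and 7.71 in siOct4, a difference of 0.78 ± 0.15 (SE, limma adjusted p = 0.00363). Nop16 was at 5.68 and 5.51 in siNcor1 and at 6.29 and 6.39 in siOct4, a difference of 0.74 ± 0.13 (SE, adjusted p = 0.00234). In both genes the groups did not overlap. Ppan was at 6.63 and 6.40 in siNcor1 and at 7.28 and 7.08 in siOct4, a difference of 0.66 ± 0.13 (SE, adjusted p = 0.00377). Within the PeBoW complex, Bop1 differed by 0.62 and Pes1 by 0.44, and both passed. Their other partner Wdr12 was at 5.96 and 6.19 in siNcor1 and at 6.01 and 7.04 in siOct4. Its siOct4 libraries lay 1.03 apart, the widest gap of a member within a group, and its difference of 0.45 had an interval from -0.09 to 1.00. Ddx18, an RNA helicase, had the smallest difference of this role, 0.29, and did not pass. Nop2, a ribosomal RNA methyltransferase, Rrp1b and Rrs1 passed with differences between 0.44 and 0.51.

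Of the 6 abundant nucleolar proteins, 4 were higher in siOct4 at day 6. Nolc1, the nucleolar and coiled-body phosphoprotein, was at 7.30 and 7.14 log2-cpm in siNcor1 and at 7.98 and 7.85 in siOct4, a difference of 0.70 ± 0.15 (SE, limma adjusted p = 0.00484). Pa2g4, a growth-regulated RNA-binding protein, was at 8.22 and 8.04 in siNcor1 and at 8.74 and 8.87 in siOct4, a difference of 0.68 ± 0.14 (SE, adjusted p = 0.00504). For both the siOct4 libraries were the higher pair. Ddx21, an RNA helicase of Pol I transcription and processing, and Gnl3, nucleostemin, each differed by 0.53 and passed. Npm1 also differed by 0.53 but did not pass, since its siOct4 libraries were at 10.77 and 11.53 (adjusted p = 0.0941). Ncl, nucleolin, was at 9.78 and 9.82 in siNcor1 and at 9.97 and 10.24 in siOct4, a difference of 0.31 with an adjusted p of 0.153.

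Myc itself (ENSMUSG00000022346, chr15:61985391-61990374, GRCm38, plus strand) was at 8.53 and 8.45 log2-cpm in siNcor1 at day 6 and at 10.32 and 9.85 in siOct4. The groups did not overlap, and the difference of 1.59 ± 0.16 (SE) was larger than that of any member, a 3.01-fold higher level. The rule of selection named this difference in Myc, so it is given as a description, with no test. The other cassette factors stood beside it with log2 differences of 1.78 for Pou5f1, 1.63 for Sox2 and 1.67 for Klf4. Within siOct4 at day 6, Myc was 0.47 lower in replicate 2 than in replicate 1, where 25 members were higher and 11 were lower, with a median of 0.13. The members higher in replicate 1 included Tcof1, by 0.44, and those higher in replicate 2 included Wdr12. With 2 libraries a relation between Myc and the members could not be tested within the group.

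**Figure D3:**
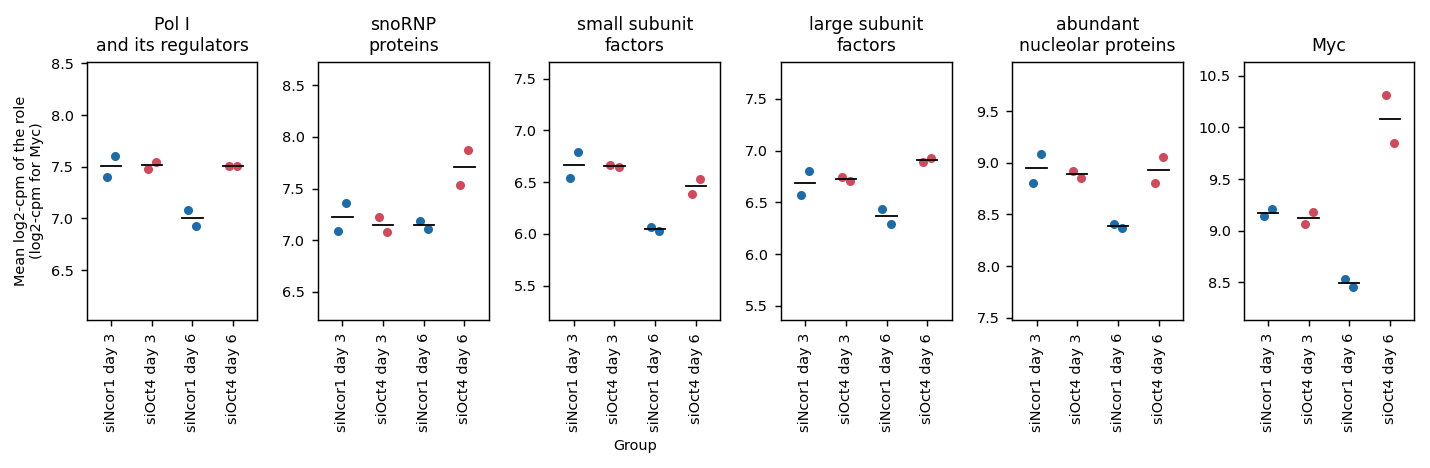
Mean log2-cpm of the members of each role, and log2-cpm of Myc, in each library (points, siNcor1 in blue and siOct4 in red) with group means (lines). All panels span the same range of log2 units. The siNcor1 libraries of day 6 are the lowest pair in every panel but that of the snoRNP proteins, and the siOct4 libraries of day 6 lie above every day 3 library for the snoRNP proteins, the large subunit factors and Myc.

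At day 3 no difference between the knockdowns was detectable in the members. None of the 36 passed the limma test in either direction, where 0.375% of tested genes were higher and 0.692% lower, and 0 had an unadjusted p below 0.05. A test with voom on the reads recovered from the deposited values called 0 members as well. The differences ran from -0.31 for Npm1 to 0.21 for Rrp12, with a median of -0.02 for the members and -0.02 for all tested genes, and 13 were above 0. Without siNcor1 day 3 replicate 1 the median was -0.14 with 2 members above 0, and without siNcor1 day 3 replicate 2 it was 0.10 with 31 above 0. Npm1 was at 10.35 and 10.57 log2-cpm in siNcor1 and at 10.27 and 10.02 in siOct4, with a 95% interval of the difference from -0.80 to 0.18. Rrp9 was at 6.42 and 6.76 in siNcor1 and at 6.63 and 6.54 in siOct4, so that the siOct4 libraries lay inside the siNcor1 pair. The libraries of the 2 knockdowns were apart for 4 members, Utp15, Rrp12, Rrs1 and Npm1, where they were for 43.4% of tested genes. Myc was at 9.14 and 9.21 in siNcor1 and at 9.07 and 9.18 in siOct4, a difference of -0.05 with an interval from -0.40 to 0.29. The 2 siNcor1 libraries of this day differed from each other in 1 direction: all 36 members were higher in replicate 2, by 0.03 to 0.42.

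Between day 3 and day 6 with siNcor1 most members fell. The test called 23 as lower, where 20.9% of tested genes were, and 2 as higher, where 13.8% were, and the median log2 change was -0.49 beside -0.07 for all tested genes. The libraries of the 2 days were apart for 29 members, of which 26 were lower at day 6, and for 73.1% of tested genes. Utp20 went from 7.99 and 8.13 log2-cpm at day 3 to 7.03 and 7.03 at day 6, a change of -1.03 ± 0.13 (SE, limma adjusted p = 0.000197) and the largest fall, to a level 2.04-fold lower. Ddx21 went from 8.65 and 9.01 to 7.87 and 7.82, and Heatr1, another large processome scaffold, from 7.34 and 7.58 to 6.48 and 6.51. Their changes were -0.98 ± 0.14 and -0.96 ± 0.13 (SE), and in both genes every day 6 library was below every day 3 library.

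By role, 4 of 5 Pol I genes and 8 of 10 small-subunit factors were called lower with siNcor1, beside 20.9% of all tested genes. So were 6 of 10 large-subunit factors and 5 of 6 abundant nucleolar proteins. Of the 5 snoRNP proteins 0 were called lower, though 4 had a change below 0. Among them Dkc1 changed by -0.49 (limma adjusted p = 0.0593) and Fbl by -0.32 (adjusted p = 0.0989). Among the Pol I genes Polr1b had the largest fall, -0.83 ± 0.14 (SE, limma adjusted p = 0.00104). Among the abundant proteins Ncl fell by 0.85. The members called higher were Nhp2 and Polr1c. Nhp2 went from 6.66 and 6.94 log2-cpm to 7.57 and 7.37, a change of 0.67 ± 0.15 (SE, adjusted p = 0.00472). Polr1c went from 6.35 and 6.38 to 6.81 and 6.66, a change of 0.37 ± 0.12 (SE, adjusted p = 0.0297). Myc, whose day 6 values the rule of selection used, is given with no test: its change was -0.68 ± 0.16 (SE). The number of calls was 13 without siNcor1 day 3 replicate 2 and 14 without siNcor1 day 6 replicate 2, and it was between 17 and 27 without any other library. Neither rise was called without siNcor1 day 3 replicate 1 or without siNcor1 day 6 replicate 1.

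**Figure D4:**
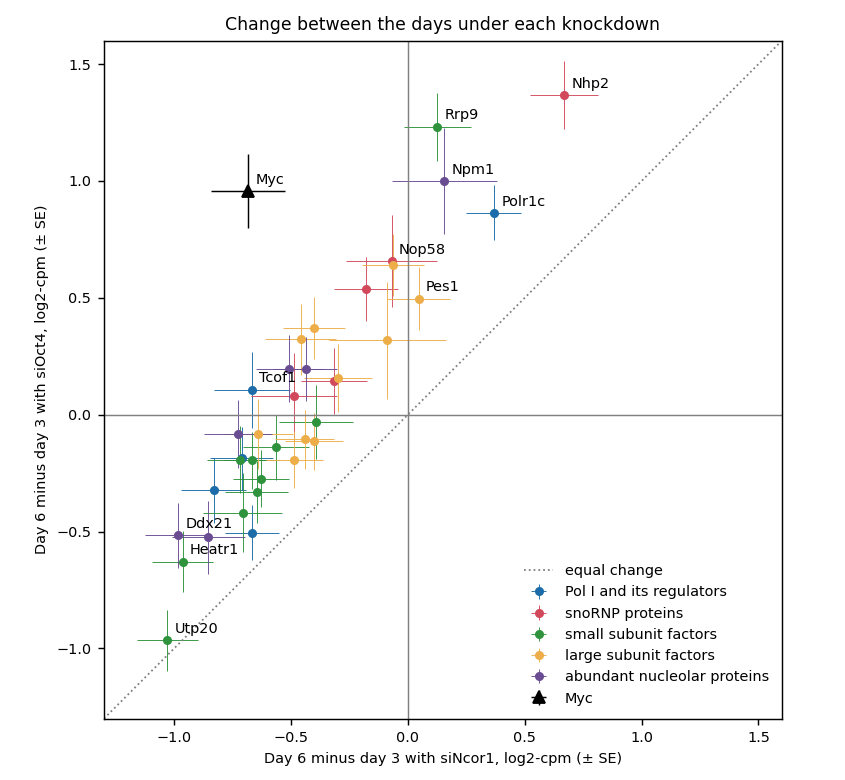
Log2 change from day 3 to day 6 with siNcor1 (horizontal) and with siOct4 (vertical) for each member, coloured by role, and for Myc (triangle), with SE bars. All 36 members lie above the dotted line of equal change, Utp20 next to it, and Myc lies furthest from it.

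Between day 3 and day 6 with siOct4 members moved in both directions, and the share that rose was near that of all tested genes. The test called 9 as higher, where 22.2% of tested genes were, and 5 as lower, where 30.5% were. The median log2 change was -0.06, beside -0.08 for all tested genes, and its sign turned with the scaling, to 0.17 after quantile normalization. The members that rose were Nhp2, Rrp9, Npm1, Polr1c, Nop58, Ppan, Nop56, Pes1 and Nop16. Nhp2 went from 7.05 and 6.71 log2-cpm to 8.24 and 8.26, a change of 1.37 ± 0.15 (SE, limma adjusted p = 1.83e-05). Rrp9 went from 6.63 and 6.54 to 7.94 and 7.69, a change of 1.23 ± 0.15 (SE, adjusted p = 3.56e-05). Npm1 went from 10.27 and 10.02 to 10.77 and 11.53, a change of 1.00 ± 0.23 (SE, adjusted p = 0.0029). For all 3 the days did not overlap. The members that fell were Utp20, Heatr1, Ncl, Ddx21 and Polr1a, and these 5 fell with siNcor1 as well. Utp20 went from 8.03 and 8.05 to 6.90 and 7.24, a change of -0.97 ± 0.13 (SE, adjusted p = 9.55e-05).

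The counts by role are small and stand beside 22.2% of all tested genes that rose with siOct4 and 30.5% that fell. By role, 3 of 5 snoRNP proteins and 3 of 10 large-subunit factors were called higher with siOct4. No member of these roles was called lower, though 4 large-subunit factors had a change below 0. Of the small-subunit factors 1 was called higher and 2 lower, and the same held for the abundant proteins. Of the Pol I genes 1 was called higher and 1 lower. Nhp2 and Polr1c rose under both knockdowns. The change of Myc, again with no test, was 0.96 ± 0.16 (SE). Without siOct4 day 3 replicate 2 the number of members called was 9, and without any other single library it was between 13 and 17. With library totals that leave out Gm26917, a highly counted long non-coding RNA, 52.5% of all genes called in this comparison were higher, beside 42.1% in the deposited scaling, since the median of all genes moved from -0.08 to 0.06.

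The comparison of the days shares libraries with the comparison of the knockdowns, so these counts are not independent of each other. The change of the knockdown difference from day 3 to day 6, tested as an interaction in limma, was above 0 for all 36 members. It passed for 10, where 7.77% of tested genes passed as higher, and none passed as lower, where 12.9% did. The median was 0.48, beside 0.01 for all tested genes. The 10 members were Rrp9 at 1.11, Noc2l at 0.78, Tcof1 and Nop16 at 0.77, Nop56 at 0.72, Ppan, Nhp2 and Pa2g4 at 0.70, Nolc1 at 0.64 and Gnl3 at 0.63. The same quantity for Myc, given with no test, was 1.64. Rrp9 had the smallest adjusted p among the members, 0.0039. It was the single member left without siNcor1 day 3 replicate 2, without siOct4 day 3 replicate 2 or without siNcor1 day 6 replicate 2. The number was 4 without siNcor1 day 6 replicate 1, 6 without siOct4 day 3 replicate 1 and 16 without siOct4 day 6 replicate 1.

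Transcript length moved with these changes across all genes. Over 13856 tested genes with a transcript in the annotation, the Spearman rho of the longest transcript's length with the change between the days was -0.34 in siNcor1 and -0.41 in siOct4, and over the 36 members it was -0.57 and -0.53. The genes were split by length into 3 classes of equal size. In the shortest class of all genes, up to 2569 bases, the median change was 0.16 in siNcor1 and 0.31 in siOct4, and in the longest class, from 4251 bases, it was -0.27 and -0.41. The 4 members with the largest rise in siOct4, Nhp2, Rrp9, Npm1 and Polr1c, have transcripts of 1042 to 1633 bases. The other members called higher there have transcripts of 1756 bases in Nop16 to 9507 bases in Nop58, which rose by 0.66. The members that fell in both knockdowns have transcripts of 4722 bases in Ddx21 to 9216 bases in Polr1a. The part of length in these changes was not tested.

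The differences between the knockdowns at day 6 are given by the same classes of length. In the shortest class the median difference of siOct4 from siNcor1 was 0.55 over 12 members and 0.15 over all genes. In the middle class it was 0.44 over 13 members and -0.02 over all genes. In the longest class it was 0.51 over 11 members and -0.18 over all genes, and in each class every member lay above the median of all genes. For the change between the days in siNcor1, 30 of the 36 members lay below the median of their class, and in siOct4 18 of 36 did. The members' GC content had a Spearman rho of 0.55 with the knockdown difference at day 6 and of 0.59 at day 3, while over all genes it was 0.01 and 0.21, and its part was not tested.

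**Figure D5:**
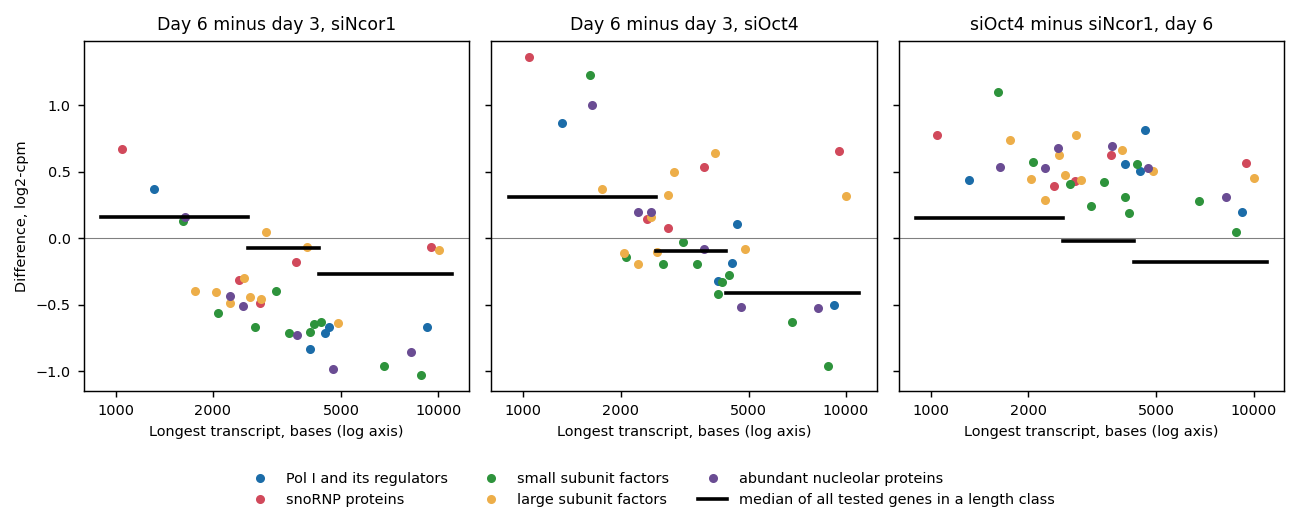
Log2 difference of each member (points, coloured by role) against the length of its longest transcript on a log axis, for both day comparisons and for the knockdowns at day 6, with the median of all tested genes in each class of length (black bars). In the right panel all members lie above the bar of their class. In the left and middle panels longer members tend to lie lower, with exceptions such as Nop58.

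The long non-coding RNA Gm26917, grouped in the gene lists with RNAs related to ribosomal RNA, took between 15.5% and 29.1% of reads. Its share was highest in the siOct4 libraries of day 6, and the origin of its reads was not tested. The small structured RNA Terc, the telomerase RNA, rose by 2.62 with siNcor1 and by 4.23 with siOct4 on the log2 scale. The part of these RNAs in the members' values was not tested. Of the members, 7 hold 21 snoRNA genes within their bounds, and 17 overlap another gene, in all cases on the opposite strand. Whether reads were counted by strand is not given in the sources used here, so reads of these overlapping genes could not be told apart.

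Ribosome biogenesis genes outside the 36 moved in the same direction at day 6. Of 104 tested genes of a wider list, 52 were higher in siOct4 than in siNcor1, where 12.1% of all tested genes were. Of the list 0 were lower, where 18.6% of all tested genes were. The median log2 difference was 0.39, beside -0.03 for all tested genes, and 101 were above 0. The largest differences were in Ebna1bp2, a large-subunit factor, at 0.88 ± 0.15 (SE, limma adjusted p = 0.00191), in Ruvbl2, an ATPase of snoRNP assembly, at 0.87, and in Nip7, also of the large subunit, at 0.86. By role 7 of 12 Pol I genes, 8 of 11 snoRNP factors, 20 of 41 small-subunit factors and 17 of 40 large-subunit factors were higher. Between the days, 40 of the 104 fell and 6 rose with siNcor1, where 20.9% and 13.8% of tested genes did. With siOct4 13 fell and 30 rose, where 30.5% and 22.2% of tested genes did. At day 3 none differed between the knockdowns, with 1 at an unadjusted p below 0.05 in limma.

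Subunits of the other polymerases gave a reference. Of 11 Pol III subunits 5 were higher in siOct4 at day 6, where 12.1% of tested genes were. The median was 0.31, beside -0.03 for all tested genes. Of 7 Pol II subunits none passed in limma in either direction, with 2 at an unadjusted p below 0.05, and the median was 0.33. Polr2a, the largest Pol II subunit, differed by -0.19. Of 18 MYC targets outside the nucleolus 6 were higher and 1 lower, where 12.1% and 18.6% of tested genes were. Those higher were Ldha of glycolysis at 0.98, Shmt2 of one-carbon metabolism at 0.96, Srm and Odc1 of polyamine synthesis at 0.90 and 0.58, Cad of pyrimidine synthesis at 0.66 and the prohibitin Phb at 0.56, and the cyclin Ccnd2 was lower at -0.83.

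In the MYC network the partner Max differed by 0.23 at day 6 and did not pass. Mycl was higher in siOct4 at 0.76, and of the MAX-binding antagonists Mxd3 and Mxi1 were higher at 1.24 and 0.75, while Mxd1 and Mxd4 were lower at -0.83 and -0.62. Mycn differed by -0.68 and did not pass. Proliferation markers were higher in siOct4 for 5 of 12, where 12.1% of tested genes were. These were Pcna at 0.76, Aurka at 0.66, Ccna2 at 0.55, Mcm5 at 0.50 and Rrm2 at 0.38, while Mki67 differed by 0.02. Between the days Mki67 fell by 1.39 with siNcor1 and by 1.24 with siOct4. Cell type markers moved as well. In siOct4 at day 6, 5 of 8 fibroblast markers and 3 of 4 epithelial markers were lower, where 18.6% of tested genes were. Of 4 tested pluripotency markers 2 were lower, with Dppa5a at -2.81, and of 2 tested neural markers 1 was higher, Tubb3 at 1.71. The summed epithelial level was 263 to 292 CPM in siOct4 and 581 to 612 CPM in siNcor1, and the summed fibroblast level 2437 to 2587 CPM and 4386 to 4757 CPM. The part of cell type and of cycling in the members' values was not tested.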

How the data were processed

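The 8 RNA-seq libraries were aligned by the authors to mm10 with STAR 2.5.2b. The authors deposited log2 values of library-scaled read counts (log2-cpm), which they computed with edgeR 3.20.9, and the table holds 1 column per library. The tool that counted reads and its annotation are not given in the sources used here. Subtracting a constant on the linear scale returned whole reads for 100% of values within 0.1 read, and 3 reads stand for 0.174 to 0.380 CPM. Intervals from reads would cover counting error only.

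The filter kept genes averaging 1 CPM or more (13866 of 18990, all 36 members among them). limma 3.58.1 in R 4.3.3 was fitted to the deposited log2-cpm of all 4 groups together (lmFit, eBayes with a variance trend, 4 residual degrees of freedom), and p-values were adjusted by Benjamini-Hochberg over all tested genes and called at 0.05. There were 5 comparisons: siOct4 against siNcor1 at day 3 and at day 6, day 6 against day 3 under either siRNA pool, and the interaction of both. The fit was tested on simulated data. Coordinates, transcripts and overlaps come from GENCODE M21 (GRCm38) by Ensembl identifier, and promoter windows from RefSeq on GRCm38.p6 by symbol. GC content and length are those of the longest transcript. Levels per kb use the summed exon length.

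The members and the gene lists were chosen with earlier results of these data known. Named are Myc, its network and the members, with full statistics for up to 3 members with the largest and 1 with the smallest change of each role, and the other lists by counts and their leading genes. Within groups the libraries differed beyond sampling noise (chi-square over its degrees of freedom, 9.38 to 22.0) and were counted as separate samples. Alternatives changed the scaling (median, quantile, totals without Gm26917), the filter, the pseudocount, the variance trend and the groups fitted, used voom on recovered reads, added a replicate block, or left out each library in turn. Figures were drawn with matplotlib 3.10.9.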

Additional observations from a re-analysis of the deposited data

Results flagged for a closer look

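The difference between siOct4 and siNcor1 changed from day 3 to day 6, by the limma interaction test, for 10 members. All 10 passed as higher, where 7.77% of tested genes passed as higher and 12.9% as lower. Without a variance trend only Rrp9 passed, and the number also depended on single libraries, as given above. The change on the log2 scale was 1.11 for Rrp9, of the U3 particle. Among the large-subunit factors it was 0.78 for Noc2l, 0.77 for Nop16 and 0.70 for Ppan. It was 0.77 for Tcof1, of Pol I transcription, and 0.72 for Nop56 and 0.70 for Nhp2 among the snoRNP proteins. Among the abundant nucleolar proteins it was 0.70 for Pa2g4, 0.64 for Nolc1 and 0.63 for Gnl3. For Myc it was 1.64, which is a description only, since it holds the day 6 difference that the rule of selection named.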

How the results depend on the processing

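No member called in a comparison, or called under an alternative, changed direction between the settings run. Leaving out 1 library at a time gave 3 to 27 members called between the knockdowns at day 6, 13 to 27 between the days in siNcor1, 9 to 17 between the days in siOct4 and 1 to 16 for the change of the knockdown difference. The libraries that decide these numbers are named with each comparison. Without a variance trend the change of the knockdown difference was called for 1 member, Rrp9, and the cause was not tested. Without the trend 16 members were called between the knockdowns at day 6. At day 3 the number stayed 0 throughout. The labels number the replicates but do not say what a number shares, and the deviations of same-numbered libraries correlated between -0.04 and 0.28. With a replicate block 26 members were called higher in siOct4 at day 6, where 1931 of 13866 tested genes were, and 0 at day 3. Between the days in siNcor1 2 were called higher and 25 lower, where 2111 and 3107 tested genes were. In siOct4 9 were called higher and 7 lower, where 3207 and 4363 tested genes were. For the change 13 were called higher, where 1375 tested genes were. With 2 libraries per group, a library left alone in its group is assumed to vary like the others. Of the values of single members over all alternatives, 2861 kept their direction and side of the threshold, 185 lost a call, 70 gained one and 88 changed sign without a call in either setting.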
